A study of Mus musculus with 6 samples.

Results

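This report concerns 8 genes for the ion channels and exchangers that carry the photoreceptor's light response, out of 24346 gene symbols with a value in the 6 retinal libraries. They were chosen by symbol and function: the rod and cone subunits of the cyclic nucleotide-gated (CNG) channel (Cnga1, Cnga3, Cngb1 and Cngb3), the sodium/calcium-potassium exchangers Slc24a1 and Slc24a2, and the potassium channel genes Kcnv2 and Kcnj14. All 8 had a row, and 7 reached the mean of 0.5 FPKM (fragment counts scaled to transcript length and sequencing depth) over the libraries needed for a test. Cnga1 did not.

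The libraries were made from mRNA of whole mouse retinas at postnatal day 12. Controls (n = 3) had the genotype Panky+/-;Panky-like+/-;Nrl-/-, and triple-deficient retinas (n = 3) had Panky-/-;Panky-like-/-;Nrl-/-. Panky is Ankrd33, a photoreceptor protein known to repress transcription driven by the homeodomain factor Crx, and Panky-like is taken here to be Ankrd33b, which the labels do not state. Both groups lack Nrl, the leucine zipper factor that rods need to form, and the photoreceptors of Nrl-deficient retinas are known to be mostly cone-like. No group has working Nrl, and none has both copies of Panky or of Panky-like, so levels in normal rods and cones are not shown here. In whole retina, fewer cells of a type and less RNA per cell cannot be told apart.

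In darkness, cyclic GMP holds the CNG channels of the outer segment open, and sodium and calcium enter. Light lowers cyclic GMP, the channels close, and the loss of this inward current hyperpolarizes the cell. Exchangers of the Slc24 family go on removing calcium, so that its level in the outer segment falls. Rods build the channel from CNGA1 and CNGB1 and use the exchanger NCKX1 (Slc24a1); cones use CNGA3, CNGB3 and NCKX2 (Slc24a2). Potassium channels of the inner segment, some of which take up the Kv8.2 subunit (Kcnv2), carry the current that balances the inward flow. Loss of CNGA3 or CNGB3 function causes achromatopsia in people, and loss of KCNV2 causes cone dystrophy with supernormal rod response.

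The libraries held about 18.2 to 27.5 M fragments each, as estimated from the steps of low FPKM values. The lowest estimate, that of triple-deficient 3, was the least certain. In triple-deficient retinas Ankrd33b stood at 1.5 ± 0.265 FPKM against 33.8 ± 1.45 FPKM, and Ankrd33 at 55.6 ± 4.66 against 106 ± 2.97 FPKM (SD, n = 3). Both fell (limma adjusted p = 4.56e-07 and 0.00274). Ankrd33 thus kept over 50 FPKM in every triple-deficient library, and reads of the Nrl locus remained too, 44.2 ± 5.46 and 52.5 ± 1.16 FPKM in controls and triple-deficient libraries. Without exon values, the retained reads of either gene do not check its deletion. Of the marker genes of rods, cones, ganglion, amacrine, horizontal and bipolar cells, Müller glia, pigment epithelium and lens, none was called, and summed lens markers were at 11.5 FPKM in control 1 against 0.951 to 1.36 FPKM elsewhere. Among cone markers Opn1sw, the short-wavelength opsin, stood at 1406 to 1568 FPKM and Opn1mw, the medium-wavelength opsin, at 47.8 to 61.6 FPKM. The rod markers were split: Gnat1, the rod transducin gene, stood at 0.269 to 0.514 FPKM and Nr2e3 at 3.62 to 4.58 FPKM, whereas Sag stood at 1239 to 1345, Pde6g at 702 to 791 and Gngt1 at 258 to 367 FPKM. Nr2e3 was at 3.62 to 3.79 FPKM in controls and 4.225 to 4.58 FPKM in triple-deficient libraries, without overlap (limma adjusted p = 0.836). An unadjusted limma p below 0.05 was found for 2 of 8 tested rod and 1 of 9 cone markers, against 5.09% of all genes tested. All were higher in triple-deficient retinas. The groups did not overlap for 2 of those rod and 2 of those cone markers, against 10.5% of all genes tested. Triple-deficient 3 stood apart in how its values ran with the GC content of genes. Its deviations from the mean of the libraries correlated with GC content at Spearman -0.59 across 14220 genes, which are not independent, against 0.07 to 0.30 in the other libraries. For transcript length control 3 stood apart, at Spearman -0.31 against -0.05 to 0.18 in the other libraries.

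Promoter sequence is shown for 3 CNG subunit genes because Crx, the factor Panky is known to act on, binds the letters TAATCC, and because these genes span the whole range of levels found, from about 0 to over 60 FPKM. Each line gives the 250 bases before the RefSeq start on GRCm38, 5′ to 3′ on the gene's strand, and capitals mark TAATCC or its reverse complement GGATTA. Cnga1 lies on the minus strand at chr5:72642753-72643002, Cngb1 on the minus strand at chr8:95306586-95306835, and the first of 2 Cnga3 windows on the plus strand at chr1:37218028-37218277.
Cnga1: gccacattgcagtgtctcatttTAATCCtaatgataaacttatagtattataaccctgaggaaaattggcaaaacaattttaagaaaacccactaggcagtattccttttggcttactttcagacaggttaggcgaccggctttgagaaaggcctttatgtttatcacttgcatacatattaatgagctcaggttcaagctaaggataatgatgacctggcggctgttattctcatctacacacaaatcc
Cngb1: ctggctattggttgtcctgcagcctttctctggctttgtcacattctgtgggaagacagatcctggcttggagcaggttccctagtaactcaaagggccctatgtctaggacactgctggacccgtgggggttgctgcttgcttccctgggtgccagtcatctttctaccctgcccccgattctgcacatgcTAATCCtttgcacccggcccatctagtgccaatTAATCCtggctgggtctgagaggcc
Cnga3: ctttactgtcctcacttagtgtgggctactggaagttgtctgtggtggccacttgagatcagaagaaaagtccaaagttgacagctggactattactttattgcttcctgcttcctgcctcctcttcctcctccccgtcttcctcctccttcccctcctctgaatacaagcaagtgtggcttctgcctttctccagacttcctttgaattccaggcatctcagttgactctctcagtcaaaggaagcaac

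The Cngb1 window held TAATCC at 2 places, starting 58 and 25 bases before the start of the gene (positions -58 and -25), and the Cnga1 window held it once, at -228. Neither Cnga3 window nor the windows of Slc24a1 (1) and Slc24a2 (2) held it. Of 32851 promoter windows of this length in the RefSeq table, 6.25% held TAATCC on either strand. No window of these 5 genes held TGCTGA or its reverse complement TCAGCA, the core motif of the Maf family to which NRL belongs, which 16.1% of all windows held. These are letter matches and show no binding.

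The pore-forming A subunits differed by the widest margin of any rod and cone pair. Cnga3, the cone subunit, was at 62.9, 58.1 and 62.3 FPKM in control libraries 1, 2 and 3 and at 58.6, 59.3 and 62.6 FPKM in triple-deficient libraries 1, 2 and 3. The groups overlapped throughout. Its change, on the log2(FPKM + 1) scale and triple-deficient minus control as everywhere below, was -0.02 (SE 0.05, 95% confidence interval -0.14 to 0.09, limma adjusted p = 0.978).

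Cnga1, the rod subunit, was listed at 0 in control 1, triple-deficient 1 and triple-deficient 3. It was at 0.0145 FPKM in control 2, 0.0157 FPKM in control 3 and 0.0171 FPKM in triple-deficient 2. At the estimated depths and a transcript of 2739 bases, these 3 values correspond to 0.99, 0.99 and 1.01 fragments, so that each rests on a single fragment. Cnga1 made up at most 0.0288% of the A subunit FPKM in any library. A genotype difference in Cnga1 was not detectable at this depth.

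The modulatory B subunits did not follow that split. Cngb3, the cone subunit, was at 54.5, 56.7 and 63.7 FPKM in controls 1, 2 and 3 and at 55.5, 61.6 and 60.2 FPKM in triple-deficient 1, 2 and 3. Its levels overlapped those of Cnga3 in both groups, so the order of those 2 genes is not resolved. The change was 0.02 (SE 0.068, interval -0.14 to 0.18, limma adjusted p = 0.984), and its sign depended on the processing.

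Cngb1, the rod subunit, was at 13.5, 12.8 and 11.2 FPKM in controls 1, 2 and 3 and at 13.7, 13.7 and 13.3 FPKM in triple-deficient 1, 2 and 3. Taken at its longest transcript of 6189 bases, Cngb1 held an estimated 1495 or more fragments in every library, against no more than 1 of Cnga1. Shorter Cngb1 transcripts would lower that estimate. Triple-deficient libraries lay close together, 1 and 2 just above the highest control and 3 within the control range. The change of 0.11 (SE 0.072, interval -0.05 to 0.28) did not pass (limma adjusted p = 0.946). Besides the channel subunit, Cngb1 encodes the soluble GARP proteins of rods. GENCODE M21 lists 10 transcripts for it, and the tables give 1 value per gene, so channel and GARP transcripts are not separated.

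Cngb1 accounted for 17.7 ± 2.57% of the B subunit FPKM in controls and 18.7 ± 1.01% in triple-deficient retinas (SD, n = 3; exact permutation p = 0.9). With 3 against 3 libraries that test cannot give less than 0.1. The sum of A subunits over the sum of B subunits was 0.864 ± 0.053 in controls and 0.829 ± 0.036 in triple-deficient libraries (SD, n = 3; exact permutation p = 0.6). By FPKM, which is per length, this ratio lay between 0.787 and 0.925 in every library. The B sum holds all Cngb1 FPKM, with channel and GARP transcripts not separated. The ratio therefore does not show whether A or B subunit transcript of the channel was higher. Cnga3 and Cngb3 alone overlapped in both groups.

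**Figure D1:**
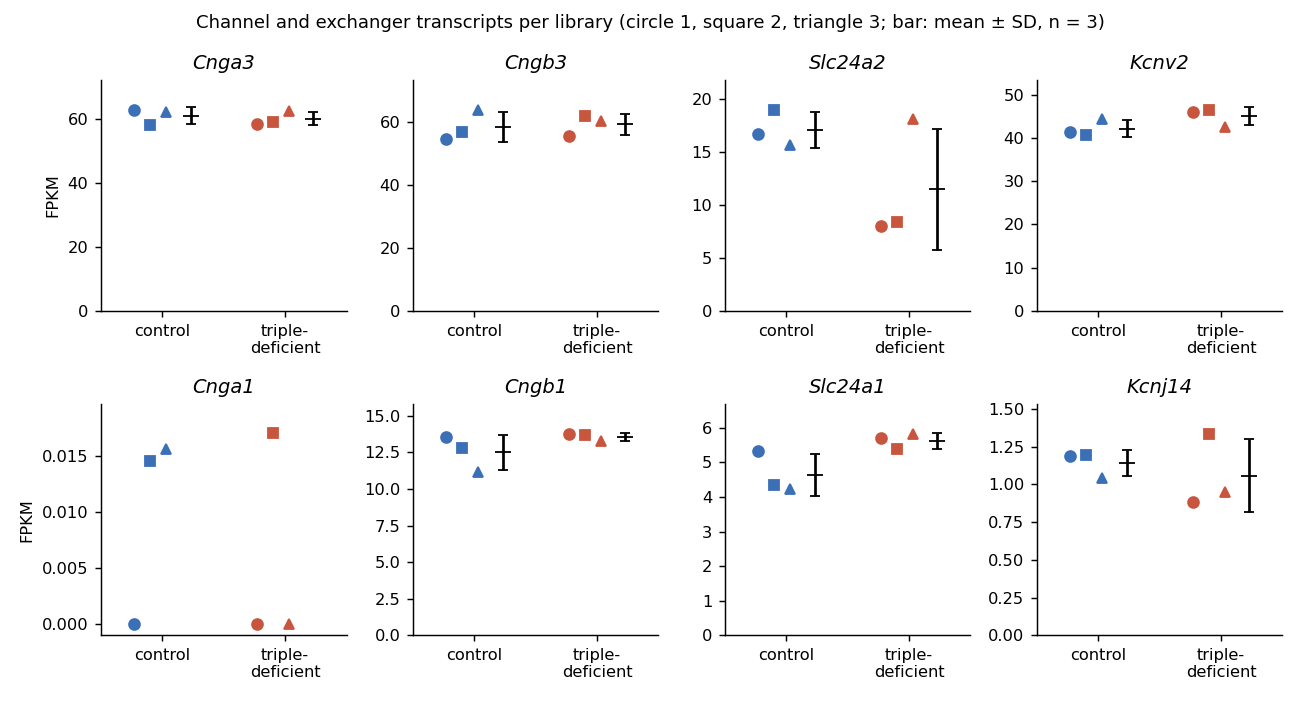
FPKM of the 8 genes in each library, controls in blue and triple-deficient libraries in red, with a linear axis of its own for each gene (circle, square and triangle are libraries 1, 2 and 3; bars give mean ± SD, n = 3, and are left out for Cnga1, which is listed at 0 in 3 libraries). Slc24a2 is at 8.02 and 8.42 FPKM in triple-deficient 1 and 2 but at 18.1 FPKM in triple-deficient 3, inside the control range, while Cnga1 never exceeds 0.0171 FPKM.

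The exchangers held the 2 genes with an unadjusted p below 0.05. Slc24a2, the exchanger of cones, also known from brain neurons, was at 16.7, 19.0 and 15.7 FPKM in controls 1, 2 and 3. It was at 8.02, 8.42 and 18.1 FPKM in triple-deficient 1, 2 and 3. Triple-deficient 1 and 2 were far below every control, at 48.0% of the control mean, whereas triple-deficient 3 lay between controls 1 and 2, at 2.2 times the mean of the other 2 libraries of its group.

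Over all libraries the change of Slc24a2 was -0.62 (SE 0.255, interval -1.21 to -0.03, limma adjusted p = 0.94), with an unadjusted limma p of 0.0406. Without triple-deficient 3 it was -0.97 and passed (limma adjusted p = 0.0141), in a fit where 11 of 14336 genes, 0.0767%, passed. Without triple-deficient 1 or 2 it was -0.43 or -0.46 and did not pass (limma adjusted p = 0.79 and 0.94). The spread within groups was large: only 66 of the 10195 genes averaging 5 FPKM or more had a larger residual SD, which put Slc24a2 at the 99.4th percentile. With margins set after its values were seen, Slc24a2 was the 1 gene of those 10195 with triple-deficient 1 and 2 at least 0.5 log2 units below every control and triple-deficient 3 within the control range. The mirror pattern was met by 2 genes, Mirlet7d and Snora34, both small RNA genes.

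Measurements taken beside Slc24a2 were as follows. Its longest annotated transcript has 44.0% GC and 10531 bases, and with the GC and length trends of each library removed its change was -0.67 (limma adjusted p = 0.746). Summed markers of retinal ganglion cells (8 of 8 tested, none called) ran from 557.5 to 617 FPKM in controls and 569.9 to 585 FPKM in triple-deficient libraries, those of amacrine cells (8 of 8 tested, none called) from 287 to 293 and 265 to 290.5 FPKM, and those of horizontal cells (6 of 6 tested, none called) from 155 to 159 and 159 to 163 FPKM. Summed cone markers were at 5872, 6465 and 6195 FPKM in triple-deficient 1, 2 and 3, against 6323 to 6450 FPKM in controls. Summed Müller glia markers (6 of 6 tested, none called) did not overlap, at 1615 to 1654 FPKM in controls and 1434 to 1570 FPKM in triple-deficient libraries. Of these 6 genes 4 changed upward and 2 downward. Only Apoe, which was lower, had an unadjusted limma p below 0.05 (0.014), against 5.09% of all genes tested. The part of base composition or of these cell types in the values of Slc24a2 was not tested beyond this. GENCODE M21 lists 9 transcripts for the gene, and the tables do not show which were counted.

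The 3 genes nearest to Slc24a2 in profile, by the root mean square difference of centred log2(FPKM + 1) values over 6 libraries among 10194 genes, were Ptgds (0.249), Grik3 (0.268) and Ttr (0.268). Ptgds, a prostaglandin D synthase, was at 9.74, 10.5 and 13.9 FPKM in triple-deficient 1, 2 and 3 and at 12.6 to 19.1 FPKM in controls. Grik3, a kainate receptor subunit, was at 4.91, 4.56 and 7.13 FPKM against 6.04 to 7.76 FPKM in controls. Ttr, the thyroxine and retinol carrier made by the pigment epithelium, was at 7.42, 8.37 and 10.7 FPKM against 12.1 to 18.0 FPKM, so that it did not return to the control range in triple-deficient 3. None of the 3 passed the test. Summed pigment epithelium markers (8 listed, 6 tested, 0 called) were at 33.2, 46.3 and 47.0 FPKM in triple-deficient 1, 2 and 3 and at 44.7 to 57.6 FPKM in controls, with a median change of -0.44 over those tested. An unadjusted p below 0.05 was found for 3 of the 6, all lower, against 5.09% of all genes tested: Ttr, Tyrp1 and Pmel. Dct and Ttr made up most of the sum in every library, and Dct was at 19.4, 30.7 and 26.1 FPKM in triple-deficient 1, 2 and 3 and at 16.1 to 24.7 FPKM in controls. Tyrp1 and Pmel stayed low in triple-deficient 3, at 2.15 and 1.81 FPKM against 3.11 to 3.77 and 2.2 to 4.71 FPKM in controls. Rgr was at 1.29, 1.69 and 1.77 FPKM against 1.62 to 2.74 FPKM. Rpe65, the retinoid isomerase, was at 1.52, 1.64 and 3.81 FPKM against 1.91 to 3.05 FPKM, so that of the 6 tested markers it alone was below every control in triple-deficient 1 and 2 and above them in triple-deficient 3. Best1 and Lrat, not tested, reached at most 0.376 and 0.382 FPKM in any library. The part of pigment epithelium content in the values of Slc24a2 was not tested.

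**Figure D2:**
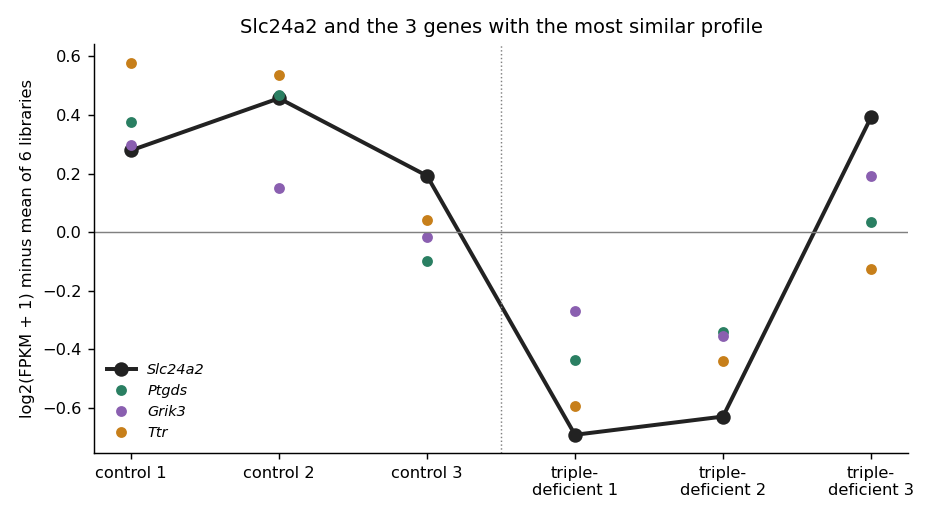
Log2(FPKM + 1) of Slc24a2 (black, joined) and of its 3 nearest genes, each centred on its mean over the 6 libraries, by library. Slc24a2 is low in triple-deficient 1 and 2 and stands with the controls in triple-deficient 3; the other genes follow only in part, with root mean square differences of 0.249 to 0.268.

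Slc24a1, the exchanger of rods, was at 5.32, 4.33 and 4.24 FPKM in controls 1, 2 and 3 and at 5.70, 5.37 and 5.81 FPKM in triple-deficient 1, 2 and 3. All triple-deficient libraries lay above all controls, although control 1 and triple-deficient 2 were almost level. The change was 0.24 (SE 0.086, interval 0.04 to 0.44, limma adjusted p = 0.866) and did not pass over all genes. Its unadjusted limma p was 0.0226. The values rest on an estimated 513 to 817 fragments per library for its single annotated transcript, a counting error of 4.42% at the lowest. With 1 library left out that p was 0.00309 without control 1, 0.0311 without triple-deficient 2, and 0.0568 to 0.0768 without any of the other 4.

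The share of Slc24a1 in the summed FPKM of both exchangers was 24.2, 18.6 and 21.3% in controls 1, 2 and 3 and 41.5, 38.9 and 24.3% in triple-deficient 1, 2 and 3. Triple-deficient 1 and 2 stood well above the controls, and triple-deficient 3 lay level with control 1. The difference of 13.6 percentage points gave the smallest p the design allows (exact permutation p = 0.1, n = 3 per group; adjusted over 5 ratios p = 0.5). With 1 library left out the difference ran from 10.3 (without triple-deficient 1) to 18.9 percentage points (without triple-deficient 3). With quantile normalization of all 6 libraries it was 13.5 percentage points. The exact permutation p was then 0.2, so the smallest p was not reached there.

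**Figure D3:**
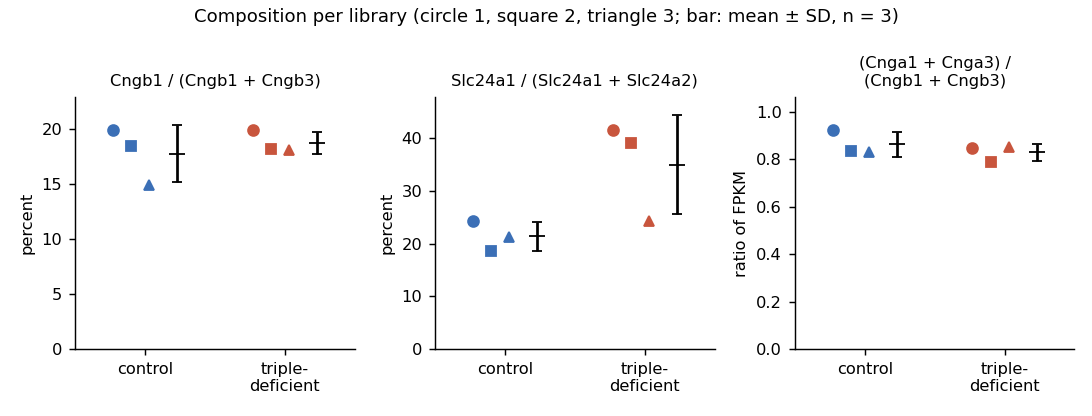
Composition by library: the share of Cngb1 in Cngb1 and Cngb3, the share of Slc24a1 in Slc24a1 and Slc24a2 alone (percent of summed FPKM), and the ratio of A to B subunits. Controls are in blue and triple-deficient libraries in red (circle, square and triangle are libraries 1, 2 and 3, and bars give mean ± SD, n = 3). Other exchangers of the family are left out. The exchanger share is near 40% in triple-deficient 1 and 2 (41.5 and 38.9%) and 24.3% in triple-deficient 3, and the other measures overlap between the groups.

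The potassium channel genes differed from each other in level more than between genotypes. Kcnv2 encodes Kv8.2, a subunit that forms no channel by itself and alters the channels it joins. It was at 41.4, 40.7 and 44.5 FPKM in controls 1, 2 and 3 and at 45.9, 46.5 and 42.6 FPKM in triple-deficient 1, 2 and 3. The groups overlapped through control 3 and triple-deficient 3, and the change was 0.09 (SE 0.055, interval -0.03 to 0.22, limma adjusted p = 0.946).

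Kcnj14 encodes Kir2.4, an inward rectifier. It was at 1.19, 1.19 and 1.04 FPKM in controls 1, 2 and 3 and at 0.886, 1.33 and 0.953 FPKM in triple-deficient 1, 2 and 3. Triple-deficient 2 was the highest library and triple-deficient 1 the lowest, so the groups overlapped on both sides. The change was -0.06 (SE 0.104, interval -0.30 to 0.18, limma adjusted p = 0.966). With an estimated 46 to 80 fragments per library, counting alone gives an error of 14.7% at the lowest.

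Over the 8 genes, 0 of the 7 tested genes passed at a limma adjusted p below 0.05, where 4 of 14325 genes, 0.0279%, did so. At an unadjusted p below 0.05 there were 2 of 7, against 5.09% of all genes tested. The groups failed to overlap for 1 of 7, Slc24a1, against 10.5% of all genes tested. The changes of the 7 genes had a median of 0.02, with 4 above and 3 below 0, where all genes tested had a median of 0.003. In controls the order of levels was Cnga3, Cngb3, Kcnv2, Slc24a2, Cngb1, Slc24a1, Kcnj14 and Cnga1, and neighbours overlapped only for Cnga3 with Cngb3. In triple-deficient retinas the mean of Slc24a2 lay below that of Cngb1, and both overlapped (11.5 ± 5.72 and 13.6 ± 0.255 FPKM; SD, n = 3).

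Other genes of photoreceptor ion transport gave no call. None of 16 tested genes passed or had an unadjusted p below 0.05, and their median change was 0.03. Kcnma1, a calcium-activated potassium channel, was at 33.5 ± 2.22 and 36.5 ± 1.79 FPKM in controls and triple-deficient retinas (SD, n = 3), and Cabp4, a calcium-binding protein of the synaptic calcium channel, at 43.0 ± 4.1 and 47.5 ± 3.49 FPKM. Their limma adjusted p was 0.943 and 0.946. Among 7 regulators of the channel none passed (median -0.005). Grb14, an adaptor that binds CNGA1, had the largest difference of that list, 5.28 ± 0.647 FPKM in controls against 4.64 ± 0.488 FPKM (-0.15, SE 0.098, limma adjusted p = 0.946). Prph2, an outer segment rim protein that binds the GARP part of CNGB1, was at 313 ± 8.54 and 321 ± 22.4 FPKM, in the same order. Calm3, a gene for calmodulin, which modulates the channel, had 255 ± 9.84 and 244 ± 17.7 FPKM.

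Of 10 genes that make or hydrolyse cyclic GMP, the ligand of the channel, none passed over all genes and 2 had an unadjusted p below 0.05, both higher in triple-deficient retinas, against 5.09% of all genes tested (median of the list -0.006). The groups did not overlap for 3 of the 10, Pde6a, Gucy2f and Pde6h, against 10.5% of all genes tested. Pde6a, which encodes the alpha subunit of the phosphodiesterase in rods, was at 13.1, 13.8 and 11.5 FPKM in controls 1, 2 and 3 and at 19.0, 22.4 and 17.0 FPKM in triple-deficient 1, 2 and 3 (0.56, SE 0.103, limma adjusted p = 0.448). Gucy2f, a retinal guanylate cyclase, was at 2.63 ± 0.501 and 3.33 ± 0.175 FPKM (0.26, SE 0.105, limma adjusted p = 0.927). Guca1a, which activates the cyclases when calcium falls, had 631 ± 18.7 and 598 ± 34.2 FPKM (limma adjusted p = 0.954). Pde6h, the gamma subunit that holds the phosphodiesterase of cones in check, had 906 ± 7.37 and 818 ± 67.9 FPKM (limma adjusted p = 0.943).

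**Figure D4:**
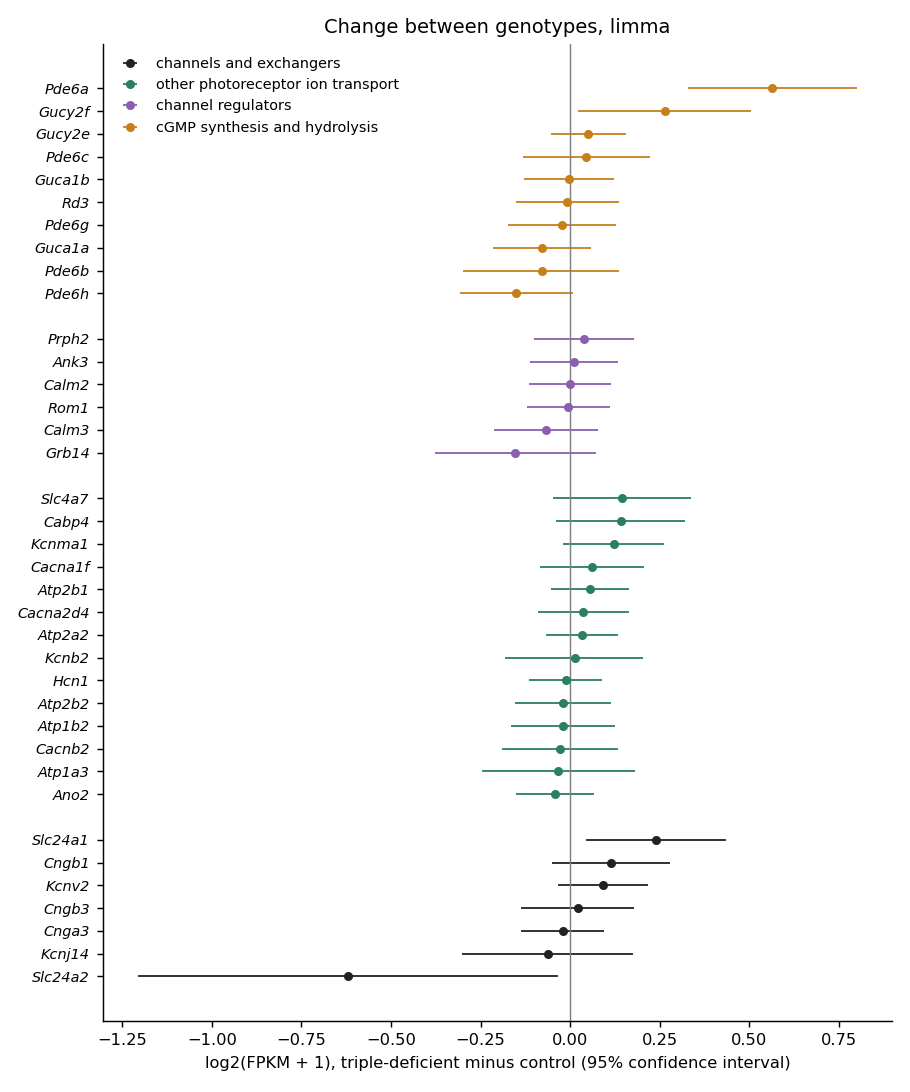
Change in log2(FPKM + 1), triple-deficient minus control, with the 95% confidence interval from limma, for the 7 tested channel and exchanger genes and for genes of 3 related lists. Slc24a2 has the widest interval, from -1.21 to -0.03, most others lie close to 0, and no gene shown passed over all genes tested.

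Other members of the same gene families were measured as well. Of 32 such genes 21 were tested, none passed, and the median change was 0.01. The highest were Slc24a3 at 61.0 ± 1.55 and 60.2 ± 1.01 FPKM and Slc24a4, for the exchanger NCKX4 also known from cones, at 57.4 ± 4.31 and 58.4 ± 1.69 FPKM in controls and triple-deficient retinas (SD, n = 3). By FPKM both of these exchangers thus exceeded Slc24a1 and Slc24a2 in every library, and their groups overlapped. Slc8a3, a sodium/calcium exchanger, was at 44.0 ± 3.74 and 47.2 ± 1.39 FPKM, and Kcnj10, the main inward rectifier of Müller glia, at 16.4 ± 1.79 and 17.2 ± 0.899 FPKM. The smallest p-values were those of Slc8a2 (-0.13), Kcng1 (0.20), Slc8a3 (0.10) and Kcnj11 (-0.11), each with a limma adjusted p of 0.946. The olfactory CNG subunits Cnga2 and Cnga4 stayed at or below 0.264 and 0.468 FPKM.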

How the data were processed

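Per the labels' protocols, RNA came from a TRIzol extraction and a stranded mRNA kit was used. The deposited values are FPKM, 1 per gene symbol and library, made by the authors. Per the submitters' processing notes Cufflinks 2.2.1, Cuffdiff, Bowtie2 2.3.5.1 and TopHat2 2.1.1 were used on mm10. Roles, annotation and library scaling: not given in the sources used here. FPKM were used as deposited.

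Genotype was tested on log2(FPKM + 1) by limma 3.58.1 (R 4.3.3, trended prior variance) for the 14325 genes averaging 0.5 FPKM or more, two-sided, with Benjamini-Hochberg adjustment over all of them and a threshold of 0.05. Ratios of genes were compared by two-sided exact permutation over libraries (scipy 1.17.1). On simulated data with 200 of 14325 genes changed, limma recovered 28.4% of 1.25-fold, 65.6% of 1.5-fold and 85.9% of 2-fold changes. These percentages hold for that simulation only, because the adjusted p depends on how many genes change. In the real libraries 4 of 14325 genes passed. There Pde6a, with a log2 change of 0.56 and an unadjusted limma p of 0.000532, had a limma adjusted p of 0.448. The percentages therefore do not give the share of real changes that the test could find. Depth was estimated from the whole-number steps of low FPKM in genes with 1 annotated transcript, where 81.0 to 88.0% of values lay within 0.1 of a whole fragment. In triple-deficient 3 a different depth matched the steps almost as well (score 0.807 against 0.826 at the best), so its fragment estimates are less certain. In the other libraries the score elsewhere was at most 0.525. Fragments per gene were taken at its longest annotated transcript. Counts were not rebuilt. These estimates cover counting error only.

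Members and lists were chosen with earlier results of these data known. The text names all members, the targeted genes, up to 4 genes per related list by smallest p, the 4 relatives with the highest mean, and 3 genes nearest in profile for members spanning more than 0.5 log2 units, which only Slc24a2 did. Some genes of the lists, and 1 of the 5 ratios, are not reported here; they remain in the counts, medians and adjustment. Marker genes of rods, cones and pigment epithelium, Cnga2, Cnga4, Mirlet7d and Snora34 were named after their values were seen. Promoters and coordinates are RefSeq GRCm38.p6, with a window for 5 of 8 members; transcripts are GENCODE M21. An annotated pseudogene overlaps Cnga1 and another Cngb3 on the same strand, and the assignment of shared reads was not known here. No label ties a library to an animal or a pair, so p-values cover only the spread between these samples.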

Additional observations from a re-analysis of the deposited data

How the results depend on the processing

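Over 18 alternatives the adjusted p of every tested member stayed above 0.05, except Slc24a2 without triple-deficient 3 (0.0141; range 0.0141 to 0.998), whose log2 change stayed between -0.97 and -0.43. Log2 changes stayed between 0.19 and 0.33 for Slc24a1, 0.04 and 0.17 for Cngb1 and 0.07 and 0.14 for Kcnv2. A change of filter, a fit without the variance trend, robust shrinkage and the replicate block cannot alter a log2 change. These ranges therefore rest on the other alternatives. Changes near 0 turned sign: Cngb3 was at -0.0313 with GC and length trends removed, with or without the replicate block, and at -0.0259 to 0.0852 when 1 library was left out; Kcnj14 was at 0.0002 with array quality weights; Cnga3 ran from -0.057 to 6e-05 when 1 library was left out. The cause was not tested. The 4 calls over all genes became 2 with no filter, 2 with robust shrinkage and 3 to 11 with 1 library left out (8 without control 3, 11 without triple-deficient 1 and 11 without triple-deficient 3). Members called ran from 0 to 1. Called genes of the related lists were counted only in the main fit and with 1 library left out, and stayed at 0 there. With 1 library left out the difference in the Cngb1 share ran from -0.454 to 2.05 percentage points, turning sign without control 3. Same-numbered libraries deviated together at r = 0.00, 0.12 and 0.10 across 10195 genes, and not every library correlated best with its own number, so the numbers were not taken as pairs. With the replicate block 4 genes and 0 members passed. In this balanced design the block can alter p-values but not a log2 change, and the limma adjusted p of Slc24a2 was 0.945 with it. Depth limits Cnga1, at 1 fragment or none, and Kcnj14.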

Other observations

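After the values of Slc24a2 (chromosome 4, 86983124 to 87230652 of GRCm38) were seen, its neighbours were looked at. Of 42 other genes averaging 0.5 FPKM or more within 10 Mb on either side, 3 (7.14%) had triple-deficient 1 and 2 below every control and triple-deficient 3 not below them, and 3 showed the mirror pattern, against 4.94% and 6.06% of 809 other genes of chromosome 4 and 4.09% and 4.51% of 13635 genes with a position. Hacd4, a dehydratase of fatty acid elongation, was at 0.519, 0.482 and 0.936 FPKM in triple-deficient 1, 2 and 3 and at 0.778 to 0.928 FPKM in controls. Gm12657 was at 0.609, 0.781 and 1.95 FPKM against 1.07 to 1.47 FPKM, and Klhl9, an adaptor of a ubiquitin ligase, at 26.6, 27.6 and 30.3 FPKM against 28.9 to 32.2 FPKM. Of the mirror pattern, Snapc3 was at 23.6, 22.5 and 20.9 FPKM against 20.8 to 22.2 FPKM, Adamtsl1 at 2.54, 2.53 and 2.43 FPKM against 2.37 to 2.48 FPKM, and Fggy at 2.09, 1.96 and 1.91 FPKM against 1.40 to 1.94 FPKM. These counts leave out neighbours that were low or high in every triple-deficient library, and genes of both kinds were present. Acer2, the nearest of them to Slc24a2, was at 4.90, 4.73 and 5.41 FPKM against 5.91 to 7.16 FPKM in controls. Ccdc171, Mtap, Lurap1l, 9530080O11Rik and the pigment epithelium marker Tyrp1 were also below every control. Plin2, Bnc2 and Cyp2j13 were above every control. Over all genes tested the groups did not overlap for 10.5%. The neighbours just named as low or high in every triple-deficient library made up a larger share of the 42 than that. A test of these neighbours was not made.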
